A study of Mus musculus with 10 samples.

Results

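Respiratory complex I was followed across 10 mouse libraries of cerebellum and medulloblastoma through the genes of its subunits. Members were the gene symbols made of Nduf, one of the letters a, b, c, s or v and a number, together with Ndufab1 and the mitochondrially encoded mt-Nd1, mt-Nd2, mt-Nd3, mt-Nd4, mt-Nd4l, mt-Nd5 and mt-Nd6, if they reached at least 10 counts in 3 or more libraries. The rule matched 50 of the 39769 symbols listed, and 49 were members, of which 42 are nuclear and 7 mitochondrial. The symbol left out, Ndufa11b, had 0 counts in all libraries. All 49 members passed the filter on low counts and were among the 15617 genes tested. Of the nuclear members, 37 encode subunits of the complex. The other 5 were kept apart: Ndufa4, whose protein is now assigned to complex IV, its paralogue Ndufa4l2, and Ndufb4b, Ndufb4c and Ndufs5-ps, which carry a subunit's name with a suffix.

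Complex I, or NADH:ubiquinone oxidoreductase, is the entry point for electrons from NADH into the respiratory chain of the inner mitochondrial membrane. Its matrix arm oxidises NADH and passes electrons along iron-sulphur clusters to ubiquinone, and its membrane arm pumps protons. Mitochondrial DNA encodes the core of the membrane arm, while the nucleus encodes the core of the matrix arm and the accessory subunits, so that the complex is built from the products of both genomes. Neurons depend on it for much of their ATP.

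By label, 3 libraries (AKP) came from medulloblastoma, a tumour of the cerebellum, of mice with AtohI-Cre, Kmt2dfl/+ and Ptch+/-, at 2 months of age for AKP 1 and AKP 2 and 4 months for AKP 3. Another 3 (NKP) came from medulloblastoma of mice with Nestin-Cre, Kmt2dfl/+ and Ptch+/-, all at 4 months. The remaining 4 (Ptch) came from cerebellum of Ptch+/- mice, at 4 months for Ptch 1 and Ptch 2 and 2 months for Ptch 3 and Ptch 4. All groups thus carry the Ptch+/- genotype, and the AKP and NKP mice also carry a Cre and 1 floxed copy of Kmt2d, a histone methyltransferase gene. Atoh1 drives Cre in granule neuron precursors and Nestin in neural stem and progenitor cells, so cells outside those lineages keep both copies. The tissue, the Cre and the Kmt2d genotype differ together between the AKP or NKP and the Ptch libraries and cannot be told apart. Whether each library stands for an animal of its own is not stated in the labels, and the tests reflect only library-to-library spread, which may be technical.

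Library totals ran from 12300430 to 19348991 counts. Levels are given in CPM, a gene's counts relative to its library's total, with totals adjusted by edgeR's TMM method. Kmt2d itself was at 34.3, 41.3 and 43.6 CPM in the AKP libraries and 33.2, 46.9 and 58.0 CPM in the NKP libraries, in the order of their numbers, against 68.4, 57.3, 56.3 and 52.6 CPM in the Ptch libraries. Neither difference passed (log2 fold changes of -0.56 and -0.34, edgeR adjusted p = 0.0650 and 0.307). The library labelled NKP 3 lay inside the Ptch range, and a gene-level count can miss the loss of a floxed exon. In 4 libraries (AKP 3, NKP 3, Ptch 1 and Ptch 3) the labelled sex was contradicted by Xist and the genes of the Y chromosome. NKP 2, labelled male, held both Xist (74.8 CPM) and Y-linked transcripts (68.4 CPM) and was not counted among these 4. Summed markers of cycling cells were at 7.40 CPM in AKP 1, 233 CPM in AKP 2 and 183 CPM in AKP 3, at 8.01, 6.63 and 49.8 CPM in the NKP libraries, and at 362, 362, 119 and 109 CPM in the Ptch libraries. The libraries labelled AKP 1, NKP 1 and NKP 2 were thus the lowest in these markers although labelled as tumours. Over all genes, with the chi-square of a pair of libraries divided by its degrees of freedom, NKP 3 was nearer to Ptch 4 (3.84) and Ptch 3 (5.37) than to NKP 1 (17.1) and NKP 2 (15.2). NKP 1 was likewise nearer to AKP 1 (3.53) than to NKP 2 (16.1). For these reasons every group name below stands for what the library was labelled, and main counts are also given without the libraries concerned.

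Sequences bear on how the members can be read, first for the mitochondrial genes, whose frames overlap. On mitochondrial DNA (GRCm38), mt-Nd4l (chrM:9877-10173) and mt-Nd4 (chrM:10167-11544) lie on the same strand and share 7 bases, shown in capitals at the end of one frame and the start of the other.
mt-Nd4l end, chrM:10144-10173, plus strand: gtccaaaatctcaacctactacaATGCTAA
mt-Nd4 start, chrM:10167-10196, plus strand: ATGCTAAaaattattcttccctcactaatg
How the authors' estimation treated fragments that cross this junction is not stated, so the split between mt-Nd4l and mt-Nd4 is uncertain. Likewise mt-Nd5 and mt-Nd6, on opposite strands, share 14 bases (chrM:13552-13565). The library kit kept no strand, so over its whole length mt-Nd6 cannot be told apart from RNA of the opposite strand. All values of mt-Nd6 below carry this limit. Ndufb4c shares all of its 341 stretches of 50 bases with Ndufb4, so the split between that pair is uncertain too.

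The second set concerns promoters. RefSeq promoters (GRCm38.p6, from 250 bases before to 50 bases after the annotated start) were held for 33 of the 37 nuclear subunit genes, and 3 motifs of factors known for respiratory genes were searched on both strands. The YY1 motif, whose letters are the capitals in the first 4 lines, was found in 4 of these 33 promoters (12.1%) and in 204 of 27025 promoters of all genes (0.755%). All 4 matches began 24 to 35 bases after the start site, in the sense direction, and are shown in capitals because this motif's share in the members differed most from that in all genes. The NRF1 motif, the capitals in the fifth line, was found in 1 member promoter (3.03%, Ndufa11) and in 1.07% of all promoters, at an offset of -60 bases from the start site.
Ndufa9, chr6:126849096-126849125, minus strand: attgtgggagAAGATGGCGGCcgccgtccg
Ndufs4, chr13:114388045-114388074, minus strand: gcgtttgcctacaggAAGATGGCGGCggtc
Ndufs6, chr13:73328433-73328462, minus strand: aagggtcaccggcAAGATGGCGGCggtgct
Ndufs7, chr10:80249463-80249492, plus strand: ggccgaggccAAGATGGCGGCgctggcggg
Ndufa11, chr17:56717692-56717721, plus strand: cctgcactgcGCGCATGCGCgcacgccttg
The ETS core CCGGAAG, bound by GABPA among others, was found in 4 member promoters (12.1%; Ndufb6, Ndufb7, Ndufs3 and Ndufs8) against 9.93% of all promoters. No member promoter held more than 1 of the 3 motifs. These are matches of letters in fixed windows, not measured binding.

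Transcripts of complex I were abundant in every library. Per kilobase of the longest annotated transcript, the mean level over the 10 libraries ran from 23.6 CPM (Ndufb2) to 364 CPM (Ndufb9) in the 37 nuclear subunit genes, with a median of 142 CPM per kilobase. For the 7 mitochondrial genes it ran from 344 CPM (mt-Nd6) to 8283 CPM (mt-Nd1), with a median of 4174 CPM per kilobase. The nuclear genes thus lay below nearly all of the mitochondrial ones, with only mt-Nd6, the gene on the opposite strand, inside the nuclear range.

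**Figure D1:**
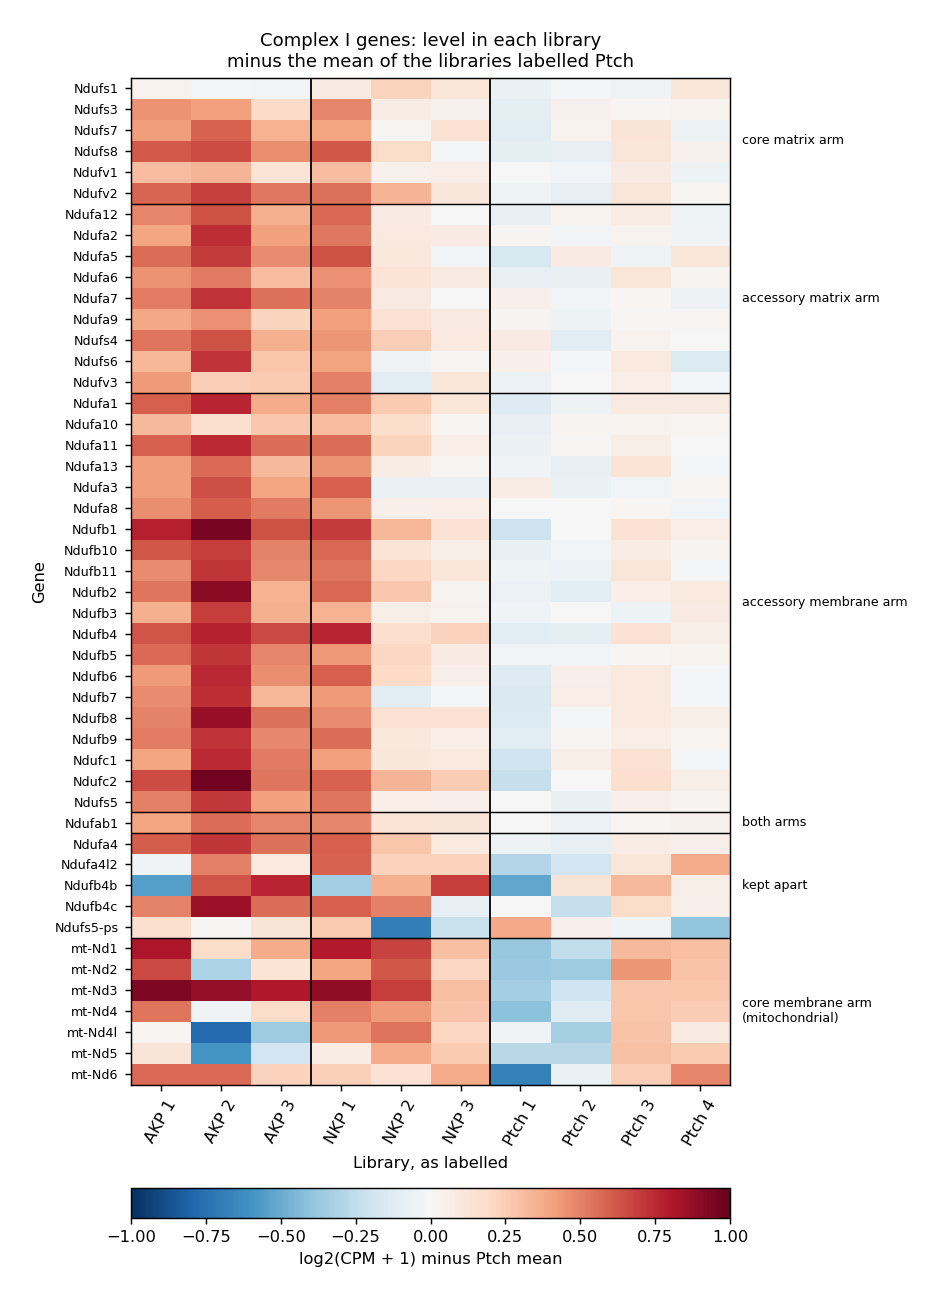
Level of each complex I gene (rows, by role) in each library (columns, as labelled), as log2(CPM + 1) minus the mean of the Ptch libraries; red is above and blue below that mean, and not every member is drawn. Rows of nuclear subunit genes are red across AKP 1 to 3 and NKP 1 and pale in NKP 3. Ndufs1 is pale throughout, and the mitochondrial rows differ within every group. In NKP 3, 18 of the 42 nuclear members lay above every Ptch library, as did 21.7% of all tested genes.

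The comparison of AKP with Ptch asks how tumour-labelled tissue with AtohI-Cre and floxed Kmt2d differs from Ptch+/- cerebellum. Nuclear complex I transcripts were higher in the AKP libraries across both arms, with the largest median among the accessory subunits of the membrane arm, and the clearest exception was the core subunit gene Ndufs1. Of the 42 nuclear members, 31 rose and 0 fell at an edgeR adjusted p below 0.05. Of all tested genes 3.38% rose, 2.3% fell and 5.68% thus changed. Log2 fold changes had a median of 0.54 over the nuclear members, 41 of them above 0, and of -0.02 over all tested genes, 47.7% of which were above 0. In 38 of 42, all 3 AKP libraries lay above all 4 Ptch libraries, which held for 12.9% of all tested genes. Summed over the nuclear members, AKP 1 to 3 had 7655, 8523 and 7294 CPM, against 5287, 5381, 5777 and 5563 CPM in Ptch 1 to 4, with no overlap.

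The core of the matrix arm was divided. Ndufv2, which carries an iron-sulphur cluster beside the flavin site, was at 328, 352 and 315 CPM in AKP 1 to 3, against 212, 206, 237 and 220 CPM in Ptch 1 to 4. It rose by a log2 fold change of 0.60 (SE 0.105, edgeR adjusted p = 0.0209), and the groups did not overlap. Ndufs8 and Ndufs7, which hold the clusters on the last stretch of the path to ubiquinone, also rose. Ndufs8 was at 189, 194 and 171 CPM in AKP, against 116, 117, 135 and 127 CPM in Ptch (0.58, SE 0.129, edgeR adjusted p = 0.0282). Ndufs7 was at 170, 192 and 162 CPM in AKP, against 118, 130, 140 and 123 CPM in Ptch (0.45, SE 0.104, edgeR adjusted p = 0.0318). Both sets of AKP values lay wholly above those of Ptch.

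Other core genes of the matrix arm did not pass. Ndufs3, a structural core subunit, had a log2 fold change of 0.36 (SE 0.113, edgeR adjusted p = 0.0753). Ndufv1, which binds NADH and the flavin, had 0.26 (SE 0.0917, edgeR adjusted p = 0.0976). In both genes the AKP values did not overlap those of Ptch. Ndufs1, the largest core subunit, which carries several iron-sulphur clusters, was at 153, 148 and 147 CPM in AKP 1 to 3, against 143, 148, 147 and 163 CPM in Ptch 1 to 4. Its groups overlapped fully, with a log2 fold change of -0.01 (SE 0.0792, edgeR adjusted p = 0.973). That sign turned to as much as 0.05 under other settings, 2 scalings among them, so Ndufs1 has no direction here.

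Accessory subunits, which surround and stabilise the core, were higher in most cases. In the matrix arm 7 of 9 rose, and log2 fold changes over all 9 ran from 0.32 to 0.60 with a median of 0.50. In the membrane arm 18 of 20 rose, and over all 20 the range was 0.25 to 0.79 and the median 0.57. Ndufab1, the mitochondrial acyl carrier protein found in both arms, was at 133, 149 and 142 CPM in AKP, against 101, 96.8, 102 and 104 CPM in Ptch, and rose by 0.49 on the log2 scale (SE 0.0967, edgeR adjusted p = 0.0220). For comparison, the median over the 7 matrix core genes was 0.36. The differences between these role groups were not tested.

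The largest log2 fold changes among the accessory genes were those of Ndufb1, Ndufc2, Ndufb4 and Ndufb8, all of the membrane arm. Ndufb1 (chromosome 12) was at 113, 128 and 103 CPM in AKP 1 to 3, against 56.7, 65.7, 72.7 and 68.9 CPM in Ptch 1 to 4. It rose by 0.79 on the log2 scale, a 1.73-fold difference (SE 0.131 on the log2 scale, edgeR adjusted p = 0.0209). Ndufc2 (chr7:97400003-97407802) was at 189, 235 and 174 CPM in AKP, against 102, 120, 135 and 125 CPM in Ptch (0.72, SE 0.124, edgeR adjusted p = 0.0209). Neither gene's groups overlapped. Ndufb4, whose fragments are shared with Ndufb4c, rose by 0.69 (SE 0.130) and Ndufb8 by 0.65 (SE 0.116), each with an edgeR adjusted p of 0.0209.

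The smallest accessory fold changes were those of Ndufa10, Ndufv3, Ndufa9 and Ndufa6. Ndufa10, related to nucleoside kinases, was at 168, 150 and 162 CPM in AKP, against 127, 137, 138 and 135 CPM in Ptch (0.25 on the log2 scale, SE 0.0871, edgeR adjusted p = 0.0943). Ndufv3, an accessory subunit beside the flavin site, had 0.32 (SE 0.120, adjusted p = 0.123). Neither passed, although their groups did not overlap. Ndufa9, at the junction of the arms, rose by 0.36 (SE 0.0942, edgeR adjusted p = 0.0440), and Ndufa6 rose by 0.43 (SE 0.103, edgeR adjusted p = 0.0349). The other accessory genes that did not pass were Ndufa3 (0.50, SE 0.145, edgeR adjusted p = 0.0615) and Ndufs6 (0.46, SE 0.129, edgeR adjusted p = 0.0535). The 4 genes with the YY1 motif had log2 fold changes of 0.36 (Ndufa9), 0.52 (Ndufs4), 0.46 (Ndufs6) and 0.45 (Ndufs7), inside the range of the other members.

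**Figure D2:**
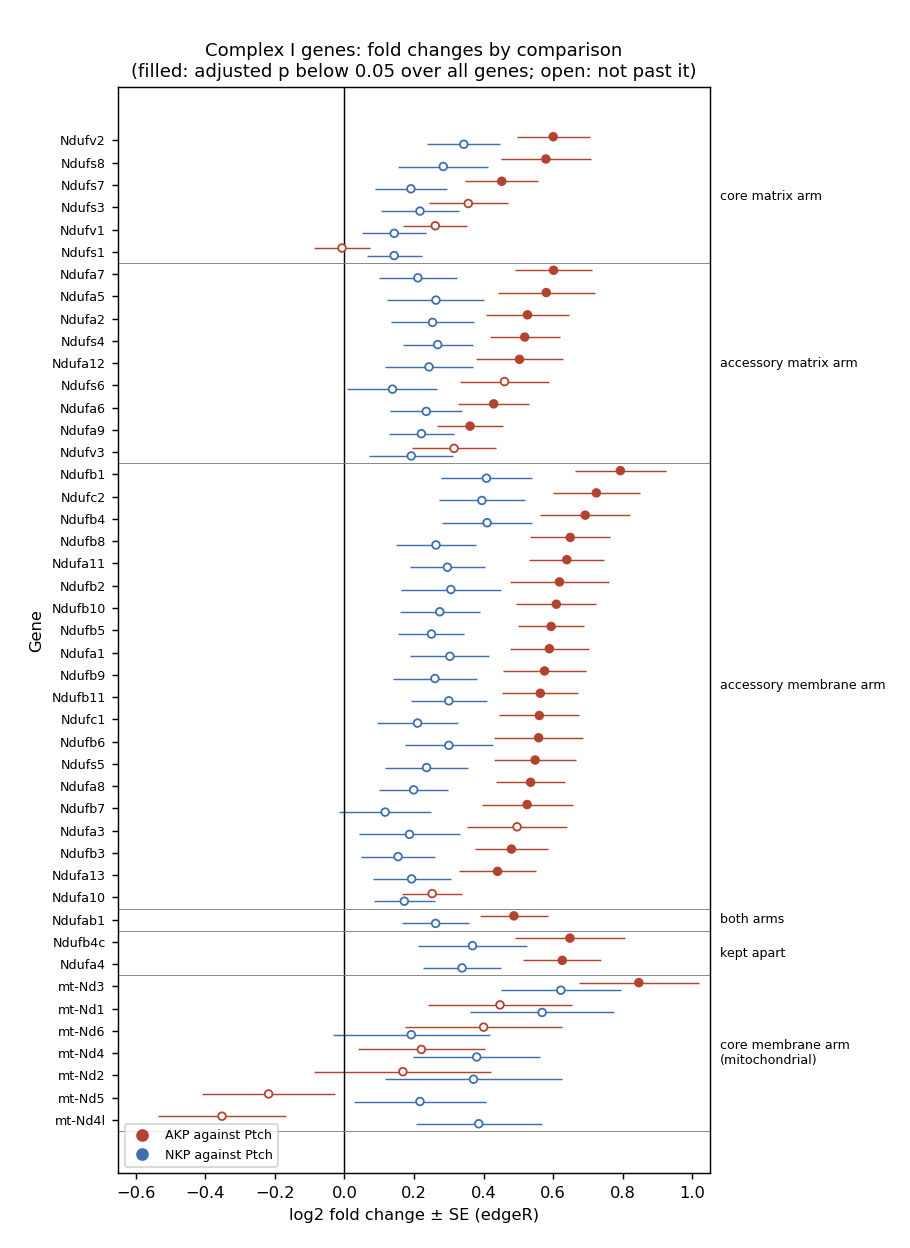
Log2 fold changes (points) with their SE (bars) from the edgeR fit for complex I genes grouped by role, AKP against Ptch in red and NKP against Ptch in blue; filled points passed an adjusted p below 0.05 over all tested genes. Not every member is drawn, and the low Ndufa4l2, Ndufb4b and Ndufs5-ps are among those left out. Nuclear AKP points centre near 0.54 and NKP points near 0.25, and none of the NKP points is filled.

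Among the 5 genes kept apart, 2 rose. Ndufa4 was at 600, 648 and 579 CPM in AKP 1 to 3, against 381, 374, 415 and 409 CPM in Ptch 1 to 4 (0.63, SE 0.112, edgeR adjusted p = 0.0209). Ndufb4c had 0.65 (SE 0.157, edgeR adjusted p = 0.0385), with the shared fragments noted above. Ndufa4l2, known as a gene induced by low oxygen, was low in all libraries, at 2.88, 4.62 and 3.24 CPM in AKP, against 2.23, 2.48, 3.31 and 4.12 CPM in Ptch. It did not pass (0.24, SE 0.277, edgeR adjusted p = 0.639). Ndufb4b and Ndufs5-ps reached at most 3.10 and 1.69 CPM and did not pass, with log2 fold changes of 0.54 (SE 0.514, edgeR adjusted p = 0.556) and 0.15 (SE 0.494, edgeR adjusted p = 0.885).

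The mitochondrial genes had log2 fold changes of both signs between AKP and Ptch. Only mt-Nd3, a small subunit near the hinge between the arms, rose among the 7, and 0 fell. It was at 3525, 3389 and 3215 CPM in AKP 1 to 3, against 1455, 1604, 2224 and 2232 CPM in Ptch 1 to 4, without overlap (0.85 on the log2 scale, SE 0.172, edgeR adjusted p = 0.0231). The remaining 6 overlapped between the groups. mt-Nd1, which forms part of the ubiquinone channel, was at 10840, 7018 and 7999 CPM in AKP, against 4742, 5205, 7734 and 7606 CPM in Ptch (0.45, SE 0.208, edgeR adjusted p = 0.203). mt-Nd4l, a small subunit of the membrane arm, was at 319, 184 and 246 CPM in AKP, against 306, 250, 383 and 334 CPM in Ptch (-0.35, SE 0.184, edgeR adjusted p = 0.260). The proton-pumping subunit genes mt-Nd2, mt-Nd4 and mt-Nd5 had log2 fold changes of 0.17, 0.22 and -0.22 with edgeR adjusted p of 0.732, 0.485 and 0.517. The last, mt-Nd6, had 0.40 (edgeR adjusted p = 0.304). The median over the 7 was 0.22, and it was not stable. It was -0.20 after a correction for transcript length and GC content, 0.008 in the libraries of 2 months, 0.051 without AKP 1, 0.11 without Ptch 1 and 0.35 without AKP 2.

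**Figure D3:**
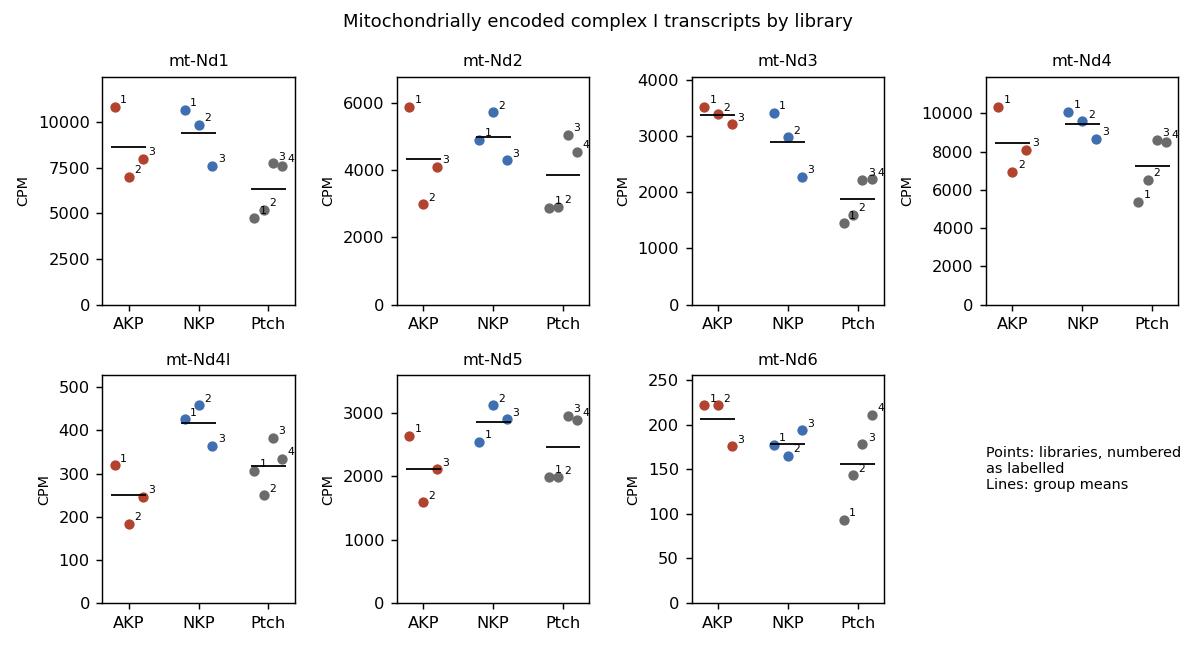
CPM of the 7 mitochondrially encoded genes in each library; points are libraries, numbered as labelled, and lines are group means, with each axis starting at 0. mt-Nd3 lies higher in all AKP libraries (3215 to 3525 CPM) than in all Ptch libraries (1455 to 2232 CPM), and mt-Nd4l lies lower in all AKP libraries (184 to 319 CPM) than in all NKP libraries (364 to 459 CPM).

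The makeup of the mitochondrial complex I transcripts differed between AKP and Ptch when read within each library, where no scaling between libraries enters. mt-Nd3 made up 10.4%, 15.2% and 12.4% of the counts of the 7 genes in AKP 1 to 3, against 8.64%, 8.60%, 8.19% and 8.47% in Ptch 1 to 4. mt-Nd4l made up 0.945%, 0.822% and 0.949% in AKP, against 1.82%, 1.34%, 1.41% and 1.27% in Ptch. mt-Nd5 made up 7.82%, 7.13% and 8.13% in AKP, against 11.9%, 10.7%, 10.9% and 10.99% in Ptch. None of these 3 shares overlapped between AKP and Ptch: that of mt-Nd3 was higher in AKP and those of mt-Nd4l and mt-Nd5 were lower. mt-Nd4 was lower in share without overlap as well, at 30.6%, 31.1% and 31.2% in AKP, against 31.9%, 35.1%, 31.8% and 32.3% in Ptch. mt-Nd1 was higher in share, at 31.4% ± 0.627 in AKP (SD, n = 3) and 28.4% ± 0.411 in Ptch (SD, n = 4). In the NKP libraries mt-Nd4l stood at 1.32%, 1.44% and 1.38%, inside the Ptch range, while mt-Nd3 stood at 10.6%, 9.35% and 8.65% and mt-Nd5 at 7.90%, 9.80% and 11.03%. The shares of mt-Nd2 and mt-Nd6 overlapped between AKP and Ptch. The 7 shares of a library add up to a whole, so they do not move independently. Shares were not corrected for transcript length or GC content and were given no test.

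The count of nuclear rises in AKP against Ptch rested on single libraries. It was 0 without Ptch 1, Ptch 2, AKP 2 or AKP 3, 19 without Ptch 3, 14 without Ptch 4 and 27 to 36 without any of the others, while the nuclear median stayed between 0.45 and 0.59. Of all tested genes, 2.07% were called without Ptch 3, 1.18% without Ptch 4 and 3.48% to 9.08% without any of the others. In the 4 fits with a count of 0, edgeR called 0 or 1 gene among all tested. The count was also 0 without the 4 libraries that went against their sex label (median 0.60), with 2 AKP libraries and 2 Ptch libraries left, and 0 in the libraries of 2 months alone (AKP 1, AKP 2, Ptch 3 and Ptch 4; median 0.56). In both of these fits 0 of all tested genes were called. With the sex label as a covariate the nuclear count was 16 (1.48% of all genes called), and with age as a covariate 30 (4.68%). Without AKP 1, NKP 1 and NKP 2, the libraries lowest in cycling cell markers, it was 33 (median 0.57), where 10.8% of all genes were called. The call of mt-Nd3 was lost in the same 4 fits that left out single libraries, in the 2-month libraries and without the 4 libraries that went against their sex label.

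Transcript length moved with the result. The 37 nuclear subunit genes had a median longest transcript of 1005 bases (419 to 4435), against 3372 bases over the tested genes with a known length. Across these 37 genes the log2 fold change of AKP against Ptch had a Spearman's rho of -0.31 with length, a description over genes that share the same libraries. Non-member genes no longer than 4435 bases, 10456 in number, had a median of 0.06 in the same comparison, and 4.56% of them rose. That limit lies above the 3372-base median of the tested genes, so this set was not matched to the members in length. It cannot show how genes near 1005 bases behaved. After each library was corrected for its trends with the length and GC content of transcripts, the nuclear median was 0.21 and 1 of 42 nuclear members was called, Ndufb5 (0.59, edgeR adjusted p = 0.0235). Ndufb5, an accessory subunit of the membrane arm, was at 235, 261 and 223 CPM in AKP 1 to 3, against 156, 156, 161 and 163 CPM in Ptch 1 to 4, with no overlap and a log2 fold change of 0.59 before correction (SE 0.0944, edgeR adjusted p = 0.0209). mt-Nd3 had 0.14 after correction (edgeR adjusted p = 0.516), and 14 of all tested genes were called. The correction used the longest transcript, which for Ndufb2, Ndufb5, Ndufb7 and Ndufab1 has 4371, 3127, 4435 and 3479 bases. These 4 had log2 fold changes of 0.66, 0.59, 0.63 and 0.48 after it and of 0.62, 0.59, 0.53 and 0.49 before it.

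**Figure D4:**
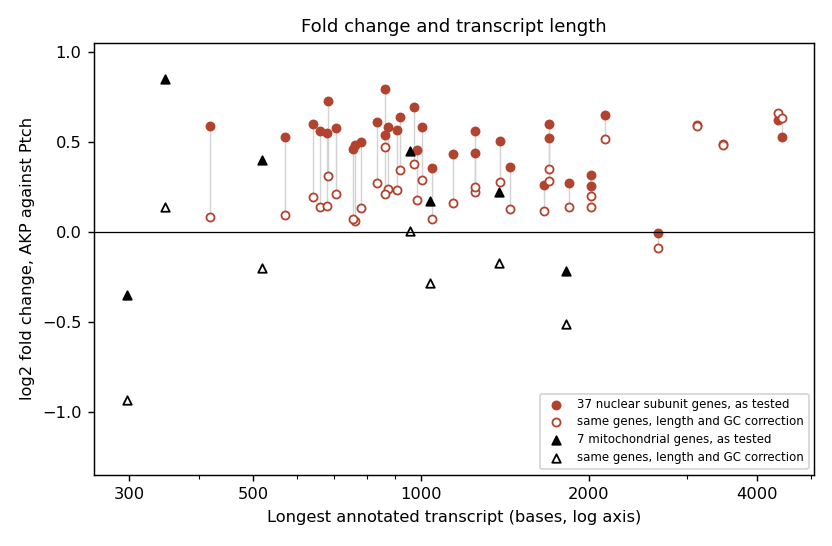
Log2 fold change of AKP against Ptch (vertical axis) by the length of the longest annotated transcript (horizontal log axis, bases) for the 37 nuclear subunit genes (circles) and the 7 mitochondrial genes (triangles), as tested (filled) and after correction for length and GC content (open). Corrected values lie lower for most genes, with Ndufb5 at 0.59 before and after.

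Markers of other cells moved with the same comparison. Summed red blood cell markers were at 1742 to 2233 CPM in AKP and 711 to 816 CPM in Ptch, with 6 of 6 above 0 in log2 fold change and 3 called. Oligodendrocyte markers summed to 8720 to 10930 CPM in AKP and 5947 to 7315 CPM in Ptch, with 7 of 7 above 0 and 1 called, and endothelial markers to 163 to 198 CPM in AKP and 112 to 151 CPM in Ptch, with 5 of 6 above 0 and 1 called. Granule neuron precursor markers were lower, at 808 to 948 CPM in AKP and 1028 to 1251 CPM in Ptch. Of these, 0 of 9 were above 0 in log2 fold change (median -0.59) and 0 called, with Atoh1 at 0 in at least 1 library. In the cycling list 0 of 10 were above 0 (median -0.7) and 0 called. There Aurkb was at 0 in at least 1 library, and no marker of the other lists was at 0 anywhere. Summed markers of Purkinje cells (3547 to 6359 CPM in AKP, 3962 to 5337 CPM in Ptch) and mature granule neurons (2357 to 4294 CPM in AKP, 2924 to 3778 CPM in Ptch) overlapped, with 0 called. Astrocyte, microglia and choroid plexus markers also had 0 called. In bulk tissue, fewer cells of a type and less RNA per cell cannot be told apart. The part of these markers in the result was not tested.

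The comparison of NKP with Ptch puts the same question for the Nestin-Cre line. Nuclear complex I genes lay above 0 in log2 fold change nearly throughout, but none passed the test. By edgeR 0 of 42 nuclear and 0 of 7 mitochondrial members were called, as were 0 of all tested genes (0%). At an unadjusted p below 0.05 there were 20 nuclear and 2 mitochondrial members and 2660 of all genes (17%). The smallest adjusted p among the members was 0.218. DESeq2 called 0 nuclear members and 1 mitochondrial, mt-Nd3, among 415 genes. The nuclear median was 0.25, with 41 of 42 above 0 where 52.3% of all genes were. Summed nuclear levels were 7713, 6126 and 5799 CPM in NKP 1 to 3, against 5287, 5381, 5777 and 5563 CPM in Ptch 1 to 4. NKP 1 stood far above all Ptch libraries, NKP 2 moderately above, and NKP 3 barely above.

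The NKP libraries also differed in how many members lay above the Ptch range. In NKP 1, 39 of 42 nuclear members lay above every Ptch library, in NKP 2 30 and in NKP 3 18, where 21.7% to 30.7% of all genes did so in these libraries. The 3 AKP libraries had 38, 40 and 39, where 30.6%, 29.9% and 25.8% of all genes did so. Ndufb4, with the largest log2 fold change among the subunit genes (0.41, SE 0.130, edgeR adjusted p = 0.218), was at 143, 94.3 and 98.6 CPM in NKP 1 to 3, against 77.96, 78.8, 92.7 and 87.3 CPM in Ptch 1 to 4. Ndufv2 and Ndufc2, with the smallest p among the nuclear members, had 0.34 (SE 0.105) and 0.40 (SE 0.124), each with an edgeR adjusted p of 0.218, and of these only Ndufc2 had groups that did not overlap. Ndufb7, with the smallest fold change, was at 162, 112 and 119 CPM in NKP, against 109, 126, 129 and 118 CPM in Ptch, and overlapped (0.12, SE 0.132, edgeR adjusted p = 0.672). The groups did not overlap, with NKP higher, in 14 of 42 nuclear members, and in 6.96% of all genes. With NKP lower this held for 0 of 42 and 8.95% of all genes. The summed nuclear levels shared their order with summed markers of red blood cells (2486, 1245 and 783 CPM in NKP 1 to 3). Markers of oligodendrocytes (12120, 8698 and 7510 CPM), endothelium, astrocytes and mature granule neurons had that order too. Markers of Purkinje cells, choroid plexus, cycling cells, granule neuron precursors and microglia had other orders. The part of any of these markers was not tested. Without NKP 3 the nuclear median was 0.32, without NKP 1 it was 0.11, and without NKP 1, NKP 2 and AKP 1 it was 0.08, resting on NKP 3 alone.

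Genes kept apart were mixed in NKP against Ptch. Ndufa4 was at 596, 479 and 423 CPM in NKP 1 to 3, above the 374 to 415 CPM of the Ptch libraries, and did not pass (0.34, SE 0.112, edgeR adjusted p = 0.218). Ndufb4c had 0.37 (SE 0.158), Ndufa4l2 0.42 (SE 0.272), Ndufb4b 0.42 (SE 0.509) and Ndufs5-ps -0.44 (SE 0.510), with edgeR adjusted p of 0.267 to 0.701 and groups that overlapped. The last was the 1 nuclear member below 0.

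Mitochondrial genes all lay above 0 in NKP against Ptch, and none passed. mt-Nd3 was at 3420, 2981 and 2276 CPM in NKP 1 to 3, against 1455, 1604, 2224 and 2232 CPM in Ptch 1 to 4, with NKP 3 just above the highest Ptch library (0.62, SE 0.172, edgeR adjusted p = 0.218). mt-Nd4 was at 10080, 9584 and 8683 CPM in NKP, against 5363, 6542, 8626 and 8514 CPM in Ptch, also without overlap (0.38, SE 0.182, edgeR adjusted p = 0.305). mt-Nd1 was at 10690, 9850 and 7590 CPM in NKP, against 4742, 5205, 7734 and 7606 CPM in Ptch (0.57, SE 0.208, edgeR adjusted p = 0.226). Of these 3, mt-Nd1 overlapped. mt-Nd4l, mt-Nd2, mt-Nd5 and mt-Nd6 overlapped as well, with log2 fold changes of 0.39, 0.37, 0.22 and 0.19 and edgeR adjusted p of 0.302 to 0.689. Against the 4-month Ptch libraries alone (Ptch 1 and Ptch 2), edgeR called all 7 mitochondrial members higher in NKP (log2 fold changes of 0.52 to 0.92) and 4 nuclear members, where 15.6% of all genes were called. Those Ptch libraries are the pair highest in cycling cell markers and the only ones with a female pattern of Xist without Y-linked genes, so age cannot be told apart from these. With age as a covariate in all libraries it called 2 mitochondrial members, mt-Nd1 and mt-Nd3, and 3 nuclear ones, where 5.97% of all genes were called.

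Set against each other directly, AKP and NKP gave no called member. Nuclear members were 0 of 42 and mitochondrial members 0 of 7 by edgeR, where 1 gene of all tested passed (0.0064%). At an unadjusted p below 0.05 there were 21 nuclear and 1 mitochondrial members, and 16.9% of all genes. DESeq2 called Ndufb5 higher (adjusted p = 0.0491) and mt-Nd4l lower (adjusted p = 0.0390), among 175 genes. The nuclear median was 0.28, with 0.029 after the length and GC correction, 0.43 without NKP 1 and 0.50 without AKP 1, NKP 1 and NKP 2. The mitochondrial median was -0.16, with -0.36 after the correction, -0.41 with age as a covariate, -0.33 without AKP 1, -0.24 without NKP 3, -0.090 without NKP 2 and 0.005 without AKP 2. Groups did not overlap in 6 nuclear members with AKP higher, where 6.69% of all genes did so, and in 1 with AKP lower, where 9.52% of all genes did so. That one was Ndufs1, at 153, 148 and 147 CPM in AKP 1 to 3, against 159, 176 and 163 CPM in NKP 1 to 3 (-0.15, SE 0.0846, edgeR adjusted p = 0.372).

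Named members of the AKP against NKP comparison had the following values. Ndufb7, with the largest log2 fold change of the subunit genes, was at 167, 201 and 152 CPM in AKP, against 162, 112 and 119 CPM in NKP (0.41, SE 0.141, edgeR adjusted p = 0.228). Ndufb5 was at 235, 261 and 223 CPM in AKP, against 215, 184 and 168 CPM in NKP (0.34, SE 0.102), and Ndufa7, an accessory subunit of the matrix arm, had 0.39 (SE 0.119), each with an edgeR adjusted p of 0.228. In Ndufb5 and Ndufa7 the AKP values lay above those of NKP, while in Ndufb7 NKP 1 reached into the AKP range. Ndufa4 and Ndufb4c had 0.29 and 0.28, and Ndufs5-ps, Ndufb4b and Ndufa4l2 had 0.59, 0.12 and -0.19, with edgeR adjusted p of 0.268 to 0.927.

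Among the 7 mitochondrial members, mt-Nd4l was the 1 whose AKP and NKP values did not overlap. Of all genes, 9.52% did so with AKP lower and 6.69% with AKP higher, so 1 of 7 is near the share of all genes. The gene mt-Nd4l had the following values. It was at 319, 184 and 246 CPM in AKP 1 to 3, against 426, 459 and 364 CPM in NKP 1 to 3 (-0.74, SE 0.196, edgeR adjusted p = 0.228). Without AKP 1, the value for mt-Nd4l, AKP against NKP, was -0.95 (edgeR adjusted p = 0.0132), where 8.49% of all genes were called. In the libraries of 4 months, with AKP 3 as the only AKP library and its spread taken from the other groups, it was -0.76 (edgeR adjusted p = 0.0295). Over all alternatives its adjusted p ran from 0.0132 to 0.860. mt-Nd5 had -0.44 (SE 0.204, edgeR adjusted p = 0.302). The others did not pass either, with log2 fold changes of -0.20 (mt-Nd2), -0.16 (mt-Nd4), -0.12 (mt-Nd1), 0.21 (mt-Nd6) and 0.22 (mt-Nd3) and edgeR adjusted p of 0.541 to 0.809.

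The balance of both genomes was read as the summed mitochondrial counts per nuclear complex I count in each library. In the order of their numbers the AKP libraries had 4.41, 2.62 and 3.56, the NKP libraries 4.18, 5.21 and 4.54, and the Ptch libraries 3.19, 3.47, 4.70 and 4.74. The AKP and Ptch values overlapped, with AKP 2 the lowest of all libraries, and the Ptch values fell by age label into Ptch 1 and Ptch 2 below and Ptch 3 and Ptch 4 above. On the log2 scale of nuclear over mitochondrial counts the groups averaged -1.79 ± 0.378 in AKP (SD, n = 3), -2.21 ± 0.160 in NKP (SD, n = 3) and -1.99 ± 0.297 in Ptch (SD, n = 4). The differences of 0.20 for AKP minus Ptch and -0.22 for NKP minus Ptch were smaller than the larger SD of each pair, and that of 0.42 for AKP minus NKP was a little larger. Within the libraries of 2 months (AKP 1 and AKP 2 against Ptch 3 and Ptch 4) AKP minus Ptch was 0.47. Within those of 4 months (NKP 1 to 3 against Ptch 1 and Ptch 2) NKP minus Ptch was -0.48. Groups overlapped in neither, but these differences rest on few libraries and on different Ptch pairs. Those pairs also differ in Xist, Y-linked genes and cycling cell markers, which cannot be told apart from age. At 4 months the only AKP library, AKP 3, went the other way. It had -1.83, below Ptch 1 (-1.67) and Ptch 2 (-1.79). Without AKP 2, AKP minus Ptch was -0.001 and AKP minus NKP 0.22. AKP and NKP overlapped through AKP 1 and NKP 1. No test was made of this ratio.

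**Figure D5:**
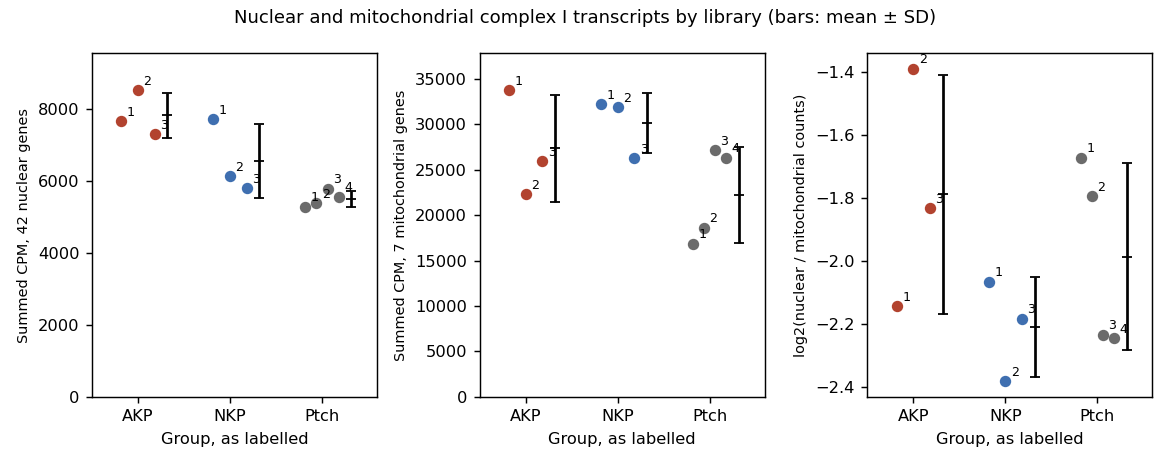
Summed CPM of the 42 nuclear members (left), summed CPM of the 7 mitochondrial members (middle) and log2 of nuclear over mitochondrial counts (right) in each library; points are libraries, numbered as labelled, and bars are mean ± SD. Nuclear sums of AKP (7294 to 8523 CPM) lie above those of Ptch (5287 to 5777 CPM), while mitochondrial sums and the ratio overlap between AKP and Ptch.

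Assembly factors, which build the arms and are not part of the finished complex, numbered 19 tested of 20 listed, and 5 rose and 0 fell by edgeR in AKP against Ptch, where 3.38% of all genes rose. This count was 0 without Ptch 1, Ptch 2, AKP 2 or AKP 3, in the libraries of 2 months, without the 4 libraries of contradicted sex and after the length and GC correction. It was 2 without Ptch 3, Ptch 4 or NKP 2 or with the sex label as a covariate, 3 with age as a covariate, and 8 by DESeq2 or without AKP 1, NKP 1 and NKP 2. Of all genes, 1.18% to 3.48% were called in the settings with 2, and 4.68% with age as a covariate. DESeq2 called 12.1% of all genes, and 10.8% were called without AKP 1, NKP 1 and NKP 2. The median log2 fold change of the 19 assembly factors was 0.37. Ndufaf6 was at 12.2, 14.6 and 10.5 CPM in AKP 1 to 3, against 6.77, 6.56, 7.58 and 6.66 CPM in Ptch 1 to 4 (0.85, SE 0.157, edgeR adjusted p = 0.0209). Ndufaf5, which hydroxylates the Ndufs7 protein, was at 56.1, 61.9 and 59.0 CPM in AKP, against 39.9, 38.2, 40.4 and 44.0 CPM in Ptch (0.54, SE 0.103, edgeR adjusted p = 0.0217). Neither overlapped, and Ndufaf3, Ndufaf8 and Tmem70 rose by 0.39, 0.55 and 0.40. By edgeR 0 of 19 were called in NKP against Ptch (median 0.16, 5 at an unadjusted p below 0.05) and 0 in AKP against NKP (median 0.15, 6 at an unadjusted p below 0.05), and DESeq2 called 0 in both. In NKP against Ptch 1 was called with age as a covariate and 1 in the libraries of 4 months, and in AKP against NKP 1 without AKP 1. Of all genes, 5.97%, 15.6% and 8.49% were called in these fits.

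Of the genes that transcribe, copy and maintain mitochondrial DNA and its RNA, 24 of 25 listed were tested. Of these, 1 rose by edgeR in AKP against Ptch and 0 fell, with a median of 0.10, and a count of 1 in 24 is near the 3.38% of all genes that rose. The one that rose was Slirp, an RNA-binding partner of Lrpprc that stabilises mitochondrial mRNA, at 46.0, 56.6 and 45.6 CPM in AKP 1 to 3, against 33.9, 36.1, 32.8 and 35.4 CPM in Ptch 1 to 4 (0.52, SE 0.127, edgeR adjusted p = 0.0382). No gene of the list was called without any 1 of the Ptch libraries, AKP 2 or AKP 3, in the libraries of 2 months, without the 4 libraries of contradicted sex, with the sex label as a covariate or after the length and GC correction. Polg, the mitochondrial DNA polymerase, had -0.23 (SE 0.0933, edgeR adjusted p = 0.146), and Tfam, which packages and transcribes mitochondrial DNA, had 0.19 (SE 0.0847, edgeR adjusted p = 0.178). Neither passed. By edgeR and by DESeq2 0 of 24 were called in NKP against Ptch and in AKP against NKP, with 1 and 0 at an unadjusted edgeR p below 0.05, and medians of -0.001 and 0.04. With age as a covariate and in the libraries of 4 months, 1 was called in NKP against Ptch, where 5.97% and 15.6% of all genes were.

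Of 10 transcription factors and coactivators known for driving respiratory genes, edgeR called 0 in each comparison, with 4 at an unadjusted p below 0.05 in AKP against Ptch, 2 in NKP against Ptch and 1 in AKP against NKP. Other settings called 1 in AKP against Ptch (DESeq2, no filter, the 2 groups alone, without NKP 1, NKP 3 or AKP 1, or without AKP 1, NKP 1 and NKP 2). These settings called 4.08% to 12.1% of all genes, and a count of 1 in 10 is near such shares. In NKP against Ptch 1 was called with age as a covariate (5.97% of all genes) and 3 in the libraries of 4 months (15.6%). Gabpb2, a subunit of the ETS factor GABP, was at 24.7, 21.6 and 22.1 CPM in AKP 1 to 3, against 38.9, 33.2, 30.7 and 30.4 CPM in Ptch 1 to 4, lower without overlap (-0.55, SE 0.152, edgeR adjusted p = 0.0530). Esrra, a nuclear receptor, had 0.26 (SE 0.0937, edgeR adjusted p = 0.107), and Ppargc1a, the coactivator best known for mitochondrial biogenesis, had 0.15 (SE 0.169, edgeR adjusted p = 0.636). The list median was -0.12 in AKP against Ptch, -0.04 in NKP against Ptch and -0.14 in AKP against NKP.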

How the data were processed

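RNA of 10 libraries was sequenced after poly-A selection using an unstranded kit, per the labels' protocols. Per the submitters' processing notes, the authors used Trim Galore, STAR and RSEM with GRCm38. Versions and annotation were not given in the sources used here. Values as deposited are whole numbers with differing totals and were taken for RSEM's expected counts, rounded by the authors. edgeR 4.0.16 in R 4.3.3 was used for filterByExpr, TMM scaling and a robust quasi-likelihood F test in 1 fit of all 10 libraries with group as the only factor, with Benjamini-Hochberg adjustment over 15617 genes and a threshold of 0.05. The SE is the log2 fold change divided by the square root of F. The length and GC correction used lowess trends (span 0.3, prior count 1) over the longest GENCODE vM21 transcript, known for 96.7% of tested genes. DESeq2 1.42.0 was an alternative, and adjusted p-values it left blank stayed out of counts. The fit was also run on simulated counts drawn independently for each library, without the closeness that some of these libraries have. No result above rests on that run. Genes named are the 7 mitochondrial members, the core subunits, the 4 accessory members with the largest and the 4 with the smallest fold change, uncalled members, those of largest and smallest fold change and the 2 smallest p in the comparisons with NKP, the members kept apart, the 2 smallest p of each helper list, Ppargc1a, Tfam and Kmt2d. The other genes called in the assembly list, the 4 with a YY1 motif and Ndufb5 were named after their values were seen. An item that the rule would name is not reported here. Members, lists and this rule were chosen with earlier results of these data known.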

Additional observations from a re-analysis of the deposited data

How the results depend on the processing

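Counts of called members in AKP against Ptch (31 nuclear and 1 mitochondrial by edgeR) kept within 1.5 times under RLE and upper quartile scaling, scaling without mitochondrially encoded genes, other filters, the 2 groups alone, DESeq2 (37 nuclear) and age as a covariate. These settings called 4.08% (no filter) to 12.1% (DESeq2) of all genes. Of all genes called, 74.5% were higher in AKP by upper quartile scaling and 59.5% by TMM. The nuclear count was 16 with the sex label as a covariate (1.48% of all genes called) and 1 after the length and GC correction (0.0896%). It was 0, with 0% of all genes called, in age-matched libraries, without the 4 libraries with contradicted sex and with the replicate block. The mitochondrial count was 0 in these last 4 settings. Leaving out 1 library at a time gave 0 to 36 nuclear and 0 to 1 mitochondrial calls, with 0% to 9.08% of all genes called. NKP against Ptch had 3 nuclear and 2 mitochondrial calls with the age covariate, 4 and 7 among libraries of 1 age, and 1 mitochondrial by DESeq2. Of all genes, 5.97%, 15.6% and 2.66% were called in these settings. There the ratio of nuclear to mitochondrial counts was -0.48 (log2) in age-matched libraries. AKP against NKP had 1 nuclear call by DESeq2 and 0 to 1 on leaving out libraries, and 1 mitochondrial call by DESeq2 and in age-matched libraries, and 0 to 1 on leaving out libraries.

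Same-numbered libraries did not deviate together (correlations of -0.36 to 0.37 over the 9 pairs), so replicate numbers were not taken as a pairing. With the replicate block, edgeR called 0 genes in each of the 3 comparisons.

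Members beyond those named by rule in a comparison also changed sign. After the length and GC correction, several nuclear subunit genes were below 0 in AKP against NKP, where the nuclear median was 0.029. Ndufa1 (-0.11), Ndufs3 (-0.10) and Ndufa2 (-0.081) were among them. For the genes that the rule names in each comparison, the following log2 fold changes changed sign, and none was called. After the length and GC correction, AKP against Ptch had mt-Nd2 -0.29, mt-Nd4 -0.17, mt-Nd6 -0.20, Ndufa4l2 -0.058 and Polg 0.011, NKP against Ptch had mt-Nd6 -0.053, and AKP against NKP had mt-Nd3 -0.14, mt-Nd6 -0.15, Ndufb4c -0.13 and Kmt2d 0.10. Age-matched libraries gave mt-Nd2 -0.12 and Ndufb4b -0.062 in AKP against Ptch, -0.098 for Ppargc1a, AKP against Ptch, and mt-Nd6 -0.028 in AKP against NKP. The age covariate gave mt-Nd3 -0.015 and mt-Nd6 -0.17 in AKP against NKP. Without the 4 libraries of contradicted sex, mt-Nd6 had -0.051 and Ndufb4b -0.06 in NKP against Ptch. Ndufs1 in AKP against Ptch had 0.029 by upper quartile scaling, 0.005 by scaling without mitochondrial genes and 0.035 with the block, which also gave Ndufs5-ps -0.045. Leaving out 1 library gave -0.026 to 0.048 for Ndufs1, AKP against Ptch, and in the same comparison mt-Nd2 -0.12 to 0.38 and Ndufs5-ps -0.045 to 0.41. In NKP against Ptch it gave Ndufb7 -0.062 to 0.22 and Ndufs5-ps -1.06 to 0.003, and in AKP against NKP mt-Nd1 -0.32 to 0.008, mt-Nd2 -0.49 to 0.005 and Ndufb4b -0.22 to 0.54. Leaving out AKP 1, NKP 1 and NKP 2, chosen after seeing the data, gave Ndufb7 -0.011 and Ndufb4c -0.081 in NKP against Ptch, mt-Nd2 -0.12 in AKP against Ptch and Ndufa4l2 0.091 in AKP against NKP. The cause was not tested.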

Other observations

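Within the Ptch libraries, the mitochondrial members differed more than the nuclear ones. Summed mitochondrial levels were 16840 and 18640 CPM in the 4-month libraries Ptch 1 and Ptch 2, against 27160 and 26350 CPM in the 2-month libraries Ptch 3 and Ptch 4. Nuclear sums were 5287 and 5381 CPM in Ptch 1 and Ptch 2, against 5777 and 5563 CPM in Ptch 3 and Ptch 4. The gene mt-Nd2 was at 2880 and 2912 CPM in Ptch 1 and Ptch 2, against 5062 and 4553 CPM in Ptch 3 and Ptch 4. This pattern was singled out after its values were seen and was given no test. Age, the expression of Xist and Y-linked genes and the level of cycling cell markers divide these 4 libraries in the same way and cannot be told apart.

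NKP 1 and AKP 1, from different Cre lines by label, were close in the members. Nuclear sums were 7655 CPM in AKP 1 and 7713 CPM in NKP 1, and mitochondrial sums 33780 CPM in AKP 1 and 32250 CPM in NKP 1. Their chi-square over all genes, 3.53 per degree, was near the 3.50 of Ptch 1 and Ptch 2. NKP 3 stood likewise close to Ptch 4, with nuclear sums of 5799 CPM in NKP 3 and 5563 CPM in Ptch 4 and mitochondrial sums of 26310 CPM in NKP 3 and 26350 CPM in Ptch 4. The reason was not tested for either pair.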
